A study of Mus musculus with 54 samples.

Results

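The splicing factor and hnRNP genes were taken as every gene symbol in the 2 count tables that begins with Hnrnp, Srsf, Sf3a, Sf3b, Snrp, U2af or Prpf, which gave 65 of the 23284 genes listed. They comprised 18 hnRNP genes, 11 SR protein genes, 3 U2AF genes, 12 Snrp genes, 8 SF3a and SF3b genes and 13 Prpf genes. The group was selected on the low level of Hnrnpc in BORIS KO round spermatids against WT, so the comparison of BORIS KO with WT round spermatids is given as a description with no test. RNA was sequenced from germ cell-enriched whole testis and from round spermatids (RS) and spermatocytes (SC), purified by elutriation and cell sorting, of C57BL/6 mice that were 3 months old. The genotypes were WT, CTCF HET (1 Ctcf allele lost), BORIS KO (both Boris alleles lost) and the combined mutant CM (Ctcf+/-Boris-/-, named DKO in the sample labels), which came from crosses of CTCF HET females with BORIS KO males. Per the labels, 4 mice went into every germ cell preparation, the whole testis libraries came from 3 such independent preparations, and for RS and SC the number of separate preparations is not given. Each genotype had 3 libraries of whole testis, RS and SC, except WT SC with 2. BORIS, the product of Ctcfl, is the testis paralog of CTCF, and the CM mice also carried the Boris deletion that BORIS KO mice carry.

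The spliceosome removes introns from pre-mRNA and is built from small nuclear ribonucleoproteins. Snrp genes encode the Sm core and the particle-specific proteins of these ribonucleoproteins, SF3a and SF3b are parts of the U2 particle that recognise the branch point, and U2AF binds the 3' splice site. Prpf genes encode further spliceosome proteins, among them the catalytic core protein Prpf8. SR proteins mostly favour the use of the exons they bind, while hnRNPs coat pre-mRNA and often act against them. The testis is known for a large number of alternatively spliced transcripts.

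Total counts ran from 10437683 to 42055813 per library in whole testis, 47740650 to 98545423 in RS and 53337530 to 88946702 in SC. The summed level of 8 spermatid markers was 1490 to 1650 CPM (counts scaled to library size by edgeR) in WT RS and 39.6 to 39.9 CPM in WT SC, and that of 9 spermatocyte markers was 5550 to 5860 CPM in WT RS and 7720 to 8070 CPM in WT SC. The sum of the spermatocyte list was thus high in RS, but single spermatocyte genes varied. Piwil1 was at 49.6 to 55.6 CPM in WT RS against 1510 and 1590 CPM in WT SC. Sycp3 was at 92.1 to 120 against 463 and 371 CPM, and Hormad1 at 73.1 to 96.1 against 269 and 213 CPM. Sycp1 overlapped, at 287 to 467 against 528 and 389 CPM. Leydig markers, a somatic list of 6 genes, summed to 344 to 582 CPM in WT whole testis and 1740 to 3400 CPM in CM whole testis. CM RS replicate 2 stood apart: its 7 spermatogonial markers summed to 356 CPM, against 37.2 to 63.1 CPM in the other CM RS libraries and 23.5 to 30.0 CPM in WT RS. The CTCF HET and CM libraries of SC detected 12018 to 16666 genes, against 17631 and 17683 in WT SC. In bulk libraries of this kind, fewer cells of a type and less RNA per cell cannot be told apart.

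Ctcf, the targeted gene, was at 47.0, 39.9 and 40.7 CPM in WT whole testis and lower in every CTCF HET library (27.6, 30.2 and 22.3 CPM) and every CM library (27.4, 26.9 and 24.0 CPM). The purified cells did not show this. In SC, the libraries labelled CTCF HET held 44.4, 52.4 and 32.3 CPM of Ctcf against 35.2 and 33.3 CPM in WT, and CM SC replicate 1 held 85.9 CPM. CM RS replicate 1 held 172 CPM against 29.4 to 48.7 CPM in WT RS, and the libraries labelled CTCF HET overlapped WT in RS. Ctcfl was at 2.84 to 5.12 CPM in WT RS, 1.97 to 2.39 CPM in BORIS KO RS and 1.11 to 2.55 CPM in CM RS. The counts cover the whole gene and do not separate reads from the deleted part. The genotype of the purified libraries labelled CTCF HET and CM therefore rests on their labels.

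In WT, most of the splicing genes were well expressed. Per kilobase of exon (RPKM, from CPM and annotated exon length), the median of the 65 genes was 26.6 in SC, 10.4 in RS and 10.99 in whole testis. In SC, 29 of the 65 ranked in the top 10% of all genes, against 15 in RS and 7 in whole testis. In SC, Hnrnpul1, a nuclear RNA-binding protein of the hnRNP U family, led with 320 ± 8.07 RPKM (SD, n = 2), followed by Hnrnpu at 265 ± 12.5 RPKM and Hnrnpa2b1 at 252 ± 11.4 RPKM. The values of Hnrnpu and Hnrnpa2b1 did not differ beyond their spread. In RS, Hnrnpu led with 245 ± 13.9 RPKM (SD, n = 3), and Hnrnpul1 followed with 167 ± 17.4 RPKM. Hnrnpc, which binds uridine-rich tracts of nascent RNA, was at rank 9 of 65 in both, at 66.5 ± 0.73 RPKM in RS and 109 ± 20.8 RPKM in SC. Snrpn, an imprinted Sm protein gene known from neurons, had at most 8 counts in any RS or SC library and was below the filter on low counts throughout. Hnrnpa1 did not exceed 1.37 CPM in RS and Hnrnpa3 did not exceed 1.65 CPM in RS. These hnRNP genes have near-identical copies elsewhere in the genome, so their counts are uncertain. The filter kept 63 members in whole testis comparisons, which dropped Hnrnpa1 and Snrpn, and 64 in most comparisons of RS and SC.

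The clearest contrast among the splicing genes was between the 2 cell types. In WT, 46 of the 64 members tested were lower in RS than in SC and 5 were higher (edgeR quasi-likelihood test, Benjamini-Hochberg adjusted p < 0.05), against 34.2% of all 16052 genes lower and 35.8% higher. The 64 include Hnrnpc, whose WT RS values the selection used. The median log2 fold change of the members was -1.15, against 0.015 for all genes tested. All 11 SR protein genes were lower in RS (median -1.79), as were 13 of 18 hnRNP genes, 6 of 8 SF3 genes, 6 of 11 Snrp genes, 8 of 13 Prpf genes and 2 of 3 U2AF genes. Spermatogonial markers summed to 23.5 to 30.0 CPM in WT RS and 6.51 to 6.60 CPM in WT SC, and macrophage markers to 84.3 to 96.3 and 2.46 to 2.98 CPM. Sertoli and Leydig markers summed lower in WT RS than in WT SC. The part of cell makeup in this contrast was not tested.

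Hnrnpm, a splicing regulator, was at 51.1, 46.7 and 49.2 CPM in WT RS and 603 and 588 CPM in WT SC. Its log2 fold change was -3.58 (SE 0.088, adjusted p = 1.31e-07, edgeR). Hnrnpl, which binds CA-rich RNA, was at 11.2, 9.08 and 9.30 CPM in RS and 241 and 246 CPM in SC. This was the largest fall among the members, with a log2 fold change of -4.60 (SE 0.124, edgeR adjusted p = 1.7e-07). U2af2, the large U2AF subunit that contacts the polypyrimidine tract, was at 3.26, 2.89 and 1.95 CPM in RS and 64.4 and 65.5 CPM in SC. Its log2 fold change was -4.55 (SE 0.212), and that of its partner U2af1 was -1.84 (SE 0.155). The other falls with the smallest p were those of Hnrnpul2 (-2.55), Hnrnpa0 (-3.57), Hnrnpa2b1 (-2.32), the SR protein gene Srsf6 (-2.62) and Sf3b3 (-2.25). In all of these every RS library lay below every SC library, as it did for 41.7% of all genes. Of the members named for their roles, the SR protein genes Srsf1 (-2.52), Srsf2 (-2.03), Srsf3 (-2.12) and Srsf10 (-1.99) fell. Snrpb, an Sm core protein gene, fell by 3.02 on the log2 scale, Prpf8, the scaffold of the spliceosome's active site, by 2.73 and Sf3b1, the branch point-binding SF3b subunit, by 1.28. Hnrnpk (-1.04), Sf3a1 (-0.96) and the tri-snRNP assembly factor gene Prpf31 (-0.56) fell less.

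Among the 5 members that were higher in WT RS were Hnrnph2, Prpf6, U2af1l4 and Hnrnpab. Hnrnph2, an X-linked gene of the hnRNP H family, was at 33.0, 29.4 and 30.8 CPM in RS and 2.17 CPM in each SC library. Its log2 fold change was 3.87 (SE 0.149, edgeR adjusted p = 6.3e-07), the largest rise among the members. The rises of Hnrnpab (0.60), Prpf6 (0.84) and U2af1l4 (0.93) were smaller; U2af1l4 is a paralog of the small U2AF subunit. Hnrnpu did not pass (log2 fold change -0.085, SE 0.085, edgeR adjusted p = 0.397). Hnrnpc was at 351 and 268 CPM in SC and 191, 187 and 190 CPM in RS, a log2 fold change of -0.68. The WT RS values of Hnrnpc were used to select the group, so this is a description with no test, as are its other comparisons that use WT RS or BORIS KO RS libraries.

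**Figure D1:**
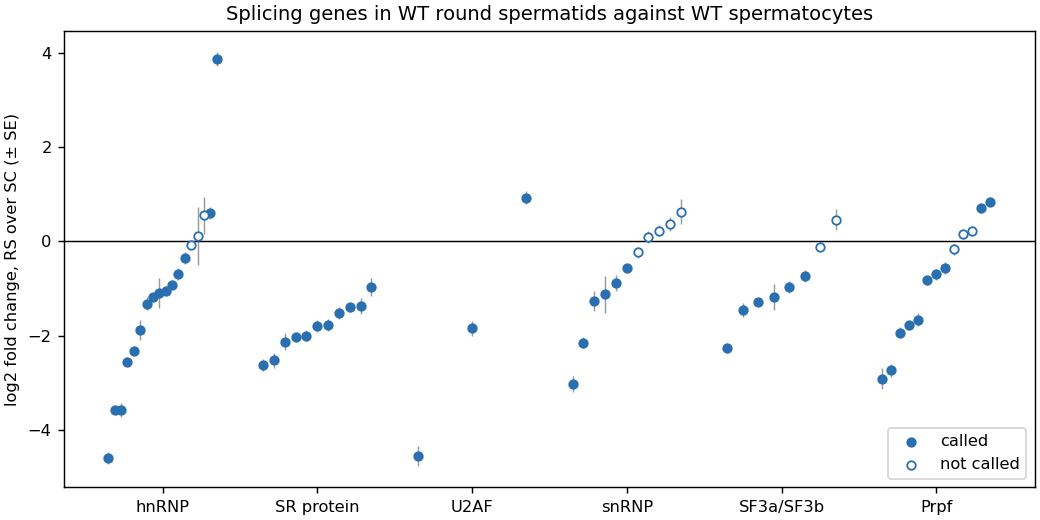
Log2 fold change (y axis, ± SE) of each splicing gene in WT round spermatids (3 libraries) over WT spermatocytes (2 libraries), ordered within families along the x axis; filled points are genes called at an adjusted p < 0.05. All 11 SR protein genes lie below 0, and Hnrnph2 stands above the rest at 3.87.

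The same comparison within the mutants gave mostly falls as well. Between libraries labelled CTCF HET, 45 of 64 members were lower in RS and 7 higher, against 23.9% and 29.7% of all genes, whose median log2 fold change was 0.27. In BORIS KO, 51 were lower and 8 higher, against 41.6% and 41.7%. The 51 include Hnrnpc, whose BORIS KO RS values the selection used. In CM, 21 of 63 members were lower and 1, Hnrnph2, was higher, against 11.9% and 16.0%. The CM count rested on CM RS replicate 2: without it 40 members were lower and 1 higher, against 34.9% of all genes called in either direction. Without CM RS replicate 3 and without CM SC replicate 2, the CM counts were 12 and 13 members in all, against 18.5% and 15.0% of all genes. In BORIS KO, CTCF HET and CM, in this order, the log2 fold change of Hnrnpm was -3.56, -3.35 and -2.40, and that of Hnrnpl was -3.98, -3.56 and -2.93. Hnrnpc had -1.81, a description since its BORIS KO RS values were used by the selection, then -2.71 and -0.94, and the CM value missed the threshold (edgeR adjusted p = 0.07). Prpf6, which rose in WT, had a value near 0 between libraries labelled CTCF HET (0.010) and did not pass there.

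Hnrnpc (build mm9, chromosome 14, 52693055 to 52723703, minus strand) was the gene for which the group was singled out. In RS it was at 191, 187 and 190 CPM in WT and 43.0, 40.1 and 45.3 CPM in BORIS KO, a log2 fold change of -2.11. In SC, which the choice did not use, it was at 351 and 268 CPM in WT and 149, 155 and 159 CPM in BORIS KO. The log2 fold change in SC was -1.01 (SE 0.102, edgeR adjusted p = 2.95e-05). In whole testis the groups overlapped, with 70.3, 43.6 and 38.7 CPM in WT and 72.9, 42.4 and 37.7 CPM in BORIS KO. In libraries labelled CTCF HET, Hnrnpc was at 128, 90.3 and 107 CPM in RS, below WT, and at 890, 655 and 651 CPM in SC, above WT. In CM it was at 224, 501 and 329 CPM in RS and 591, 721 and 723 CPM in SC, above WT in every library of both cell types. The plot of Hnrnpc by library shows that the order of the genotypes differed between preparations.

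**Figure D2:**
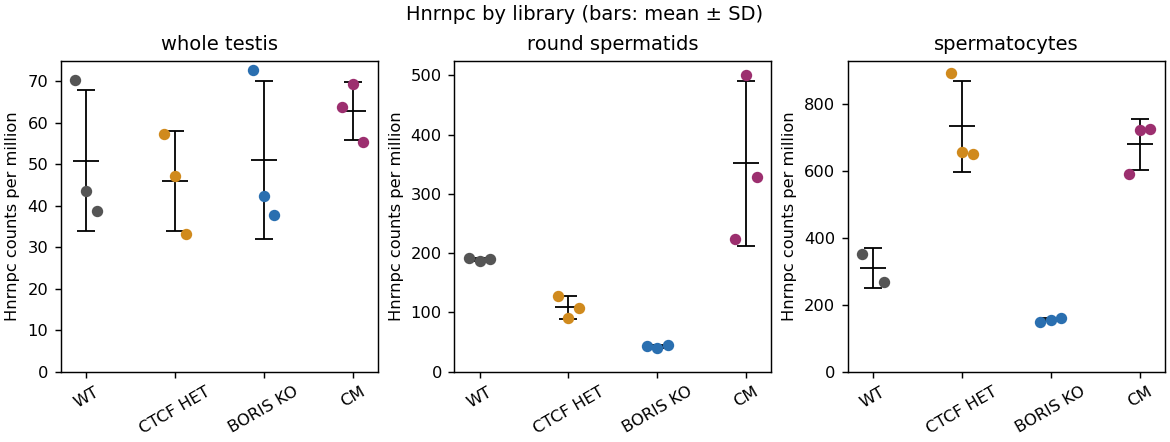
Hnrnpc in CPM (y axis, from 0) in each library (points) of the 4 genotypes (x axis) in whole testis, round spermatids and spermatocytes; bars give the mean ± SD of 3 libraries, or 2 for WT spermatocytes. BORIS KO libraries lie at 40.1 to 45.3 in round spermatids against 187 to 191 in WT, while whole testis groups overlap.

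In RS, where the group was selected, 30 members were lower and 19 higher in BORIS KO than in WT at the same threshold, against 29.0% and 26.8% of all 15513 genes, and nothing is read from these counts. The 5 largest falls were those of Hnrnpr (-2.17), Hnrnpc (-2.11), Srsf11 (-1.39), Prpf38b (-1.35) and Hnrnph1 (-1.34). The 5 largest rises were those of Snrpf (2.37), Hnrnpa3 (2.18), Snrpa (1.88), Snrpb (1.52) and Hnrnpf (1.19). Hnrnpr, a close relative of the RNA-binding protein SYNCRIP, was at 284, 245 and 258 CPM in WT RS and 58.6, 56.5 and 54.6 CPM in BORIS KO RS. Snrpa, the U1 particle protein that binds a stem loop of U1 RNA, was at 12.3, 7.88 and 8.60 CPM in WT RS and 36.4, 34.4 and 32.5 CPM in BORIS KO RS. Snrpf and Hnrnpa3 had at most 52 counts in any WT RS library. With an offset for the GC content of each gene, the values in the same order were -1.85, -1.51, -0.59, -0.74 and -0.29 for the falls and 3.07, 3.01, 1.30, 1.29 and 1.17 for the rises. The 9 spermatocyte markers summed to 3430 to 3590 CPM in BORIS KO RS against 5550 to 5860 CPM in WT RS. The 8 spermatid markers summed to 1000 to 1710 CPM against 1490 to 1650 CPM. Among single spermatocyte genes, Sycp1, Sycp3 and Hormad1 were lower in every BORIS KO RS library. Piwil1 was higher, at 67.8 to 76.7 CPM against 49.6 to 55.6 CPM. The part of cell makeup in these values was not tested.

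In SC, 33 of the 64 members tested were lower and 17 higher in BORIS KO than in WT (edgeR), against 28.1% and 29.1% of all 14338 genes. The median log2 fold change of the members was -0.16, against 0.022 for all genes. With all genotypes in 1 fit, 18 members were called in place of 50, against 14.5% of all genes. Among families, 12 of 18 hnRNP and 9 of 13 Prpf genes were lower, while 5 of 8 SF3 genes were higher. The falls with the smallest p included those of Hnrnpr, Prpf4b, Srsf11 and Prpf38b. Hnrnpr was at 379 and 302 CPM in WT SC and 151, 158 and 158 CPM in BORIS KO SC. Every BORIS KO library lay below WT, as for 35.5% of all genes. Its log2 fold change was -1.14 (SE 0.086, edgeR adjusted p = 2.98e-06). Srsf11, an SR-related protein, was at 729 and 608 CPM in WT SC and 330, 360 and 375 CPM in BORIS KO SC. Its log2 fold change was -0.92 (SE 0.084). The kinase gene Prpf4b (-0.71) and Prpf38b (-0.74) fell as well.

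The 5 rises with the smallest p in BORIS KO SC were those of Snrpa, Sf3b5, Snrpf, Sf3a2 and Hnrnpf. Snrpa was at 21.2 and 25.8 CPM in WT SC and 54.1, 52.8 and 49.4 CPM in BORIS KO SC. The log2 fold change was 1.14 (SE 0.087, edgeR adjusted p = 2.37e-06). Sf3b5, a small SF3b subunit, was at 21.5 and 21.3 CPM in WT and 37.4, 40.0 and 36.1 CPM in BORIS KO (log2 fold change 0.82, SE 0.071). Snrpf, an Sm core protein gene, was low throughout, at 1.01 and 1.10 CPM in WT and 3.29, 3.32 and 2.78 CPM in BORIS KO. Sf3a2 (0.63) and Hnrnpf (0.53) rose less. Of the members named for their roles, Snrpb (0.83), Prpf31 (0.38), Srsf2 (0.22) and Sf3a1 (0.21) rose, and Srsf10 (-0.46), Hnrnpa2b1 (-0.34), Sf3b1 (-0.26), Hnrnpu (-0.22), U2af1 (-0.22) and Hnrnpk (-0.17) fell. U2af2 (0.11) and Prpf8 (0.11) did not pass.

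The change in BORIS KO moved with GC content. Over the 64 members, which share their libraries, Spearman's rho of the log2 fold change with exonic GC content was 0.66 in SC, close to the 0.63 over all genes with a gene model, and 0.60 in RS. With an offset that took out each library's own GC trend, rho over the members in SC was 0.03. The offset fit called 18 members lower and 16 higher in SC, against 20.7% and 23.3% of all genes. Of the 50 members called without the offset, 25 were called in the same direction with it (15 lower and 10 higher), 22 were no longer called, and Hnrnpa2b1, Hnrnpk and Prpf38a were called higher instead of lower. Hnrnpc kept its call with the offset, at -0.65 (edgeR adjusted p = 0.000317), as did Hnrnpr at -0.94, Snrpa at 0.81 and Srsf11 at -0.46. Srsf1, a founding SR protein, went from -0.44 to 0.012 and Srsf3 from -0.38 to 0.099. The part of GC content in these differences was not tested beyond this fit.

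**Figure D3:**
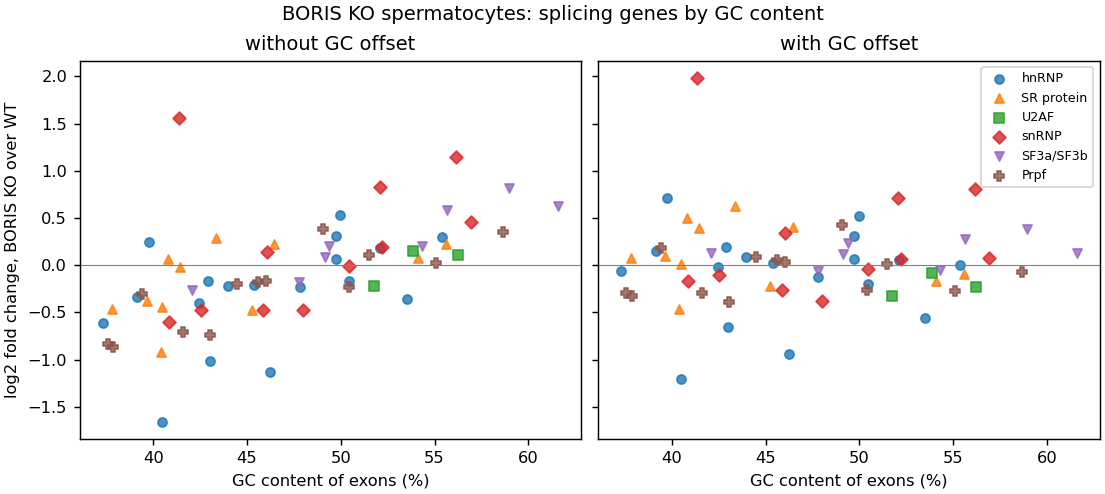
Log2 fold change of the 64 splicing genes in BORIS KO over WT spermatocytes (y axis) against the GC content of their exons (x axis, %), without (left) and with (right) the GC offset; markers give the family. The trend rises on the left (rho 0.66). On the right (rho 0.03) the offset takes the trend over all genes out by design, so its flatness is no separate result.

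In whole testis, edgeR called 0 members in BORIS KO against WT, with 4 members at an unadjusted p < 0.05, and DESeq2 also called 0. Of all 16344 genes, 0.0551% were called. The labels do not pair whole testis libraries across genotypes. Same-numbered libraries deviated together, and replicate 1 was also the deepest library of each genotype, whose part was not tested. With the replicate number as a block, 3 members were higher, against 3.02% of all genes. These were Prpf39 (log2 fold change 0.68, adjusted p = 0.0464), Srsf1 (0.44, adjusted p = 0.0485) and the SR protein gene Srsf2 (0.70, adjusted p = 0.0394). Prpf39, a U1-associated protein gene, was at 8.41, 8.80 and 7.31 CPM in WT and 11.6, 14.4 and 13.9 CPM in BORIS KO. Hnrnpc had a log2 fold change of 0.000 (SE 0.265). The spermatogonial markers summed to 91.8 to 121 CPM in BORIS KO whole testis against 52.1 to 70.6 CPM in WT, the 5 Sertoli markers found to 385 to 475 against 200 to 334 CPM, and the Leydig markers to 676 to 1400 against 344 to 582 CPM. The part of cell makeup in the 3 calls was not tested.

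Libraries labelled CTCF HET differed from WT in a smaller share of the splicing genes. In RS, 6 of 64 members were lower and 6 higher (edgeR), against 12.8% and 9.51% of all 15238 genes. The 6 falls count Hnrnpc, whose WT RS values the selection used. With all genotypes in 1 fit, 0 members were called, against 2.96% of all genes. In the fit of CTCF HET and WT alone, the falls were those of Hnrnpc, Prpf18, Hnrnpr, Snrpe, Hnrnpd and Hnrnph1, and the rises were those of Prpf8, U2af2, Snrpa, Snrpb, Snrpf and Sf3a2. Hnrnpc had a log2 fold change of -0.79 against the WT RS values that the selection used, so it is given with no test. Prpf8 was at 72.6, 58.9 and 52.2 CPM in WT and 104, 104 and 102 CPM in CTCF HET. This gave a log2 fold change of 0.78 (SE 0.128, edgeR adjusted p = 0.00581). Prpf18, a second-step splicing factor, was at 31.8, 33.7 and 35.7 CPM in WT and 23.7, 22.9 and 24.2 CPM in CTCF HET (log2 fold change -0.50). Hnrnpr (-0.54), Snrpe (-0.56) and Hnrnpd (-0.31) fell, and U2af2 (0.97), Snrpa (0.83), Snrpb (0.70) and Snrpf (1.39) rose.

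These counts in CTCF HET RS depended on single libraries. Without WT RS replicate 1, 25 members were called, against 42.3% of all genes. Without WT RS replicate 2 or 3 or CTCF HET RS replicate 1, 2 members were called each time, against 5.93%, 5.88% and 6.22%. Without CTCF HET RS replicate 2 there were 4, against 8.57%, and without replicate 3 there were 6, against 12.5%. With the GC offset, 7 members were lower and 13 higher, against 12.1% and 9.72% of all genes, and 9 of the 12 calls were kept in direction. Spearman's rho of the fold change with GC content was 0.37 over the members and 0.50 over all genes. The spermatid markers summed to 1010 to 1120 CPM in CTCF HET RS against 1490 to 1650 CPM in WT RS and the spermatocyte markers to 4420 to 5280 against 5550 to 5860 CPM, and their part in these values was not tested.

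In SC, libraries labelled CTCF HET differed from WT in 20 of 64 members, 10 lower and 10 higher (edgeR), against 8.76% and 6.77% of all 13648 genes. U2af2 was at 64.4 and 65.5 CPM in WT and 32.5, 37.2 and 33.6 CPM in CTCF HET. It had a log2 fold change of -0.91 (SE 0.124, edgeR adjusted p = 0.00731). Hnrnpc had a log2 fold change of 1.25 (SE 0.181, edgeR adjusted p = 0.0079). Prpf8 was at 397 and 432 CPM in WT and 222, 266 and 298 CPM in CTCF HET (log2 fold change -0.66, SE 0.125). Snrpd1, an Sm core protein gene, was at 83.0 and 67.7 CPM in WT and 188, 139 and 144 CPM in CTCF HET (log2 fold change 1.07, SE 0.165). Hnrnpl (-0.56), Sf3b3 (-0.74) and Sf3a2 (-0.96) fell, and Hnrnpr (0.95) and Srsf4 (0.39) rose.

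Without CTCF HET SC replicate 2, no member and 0.00730% of all genes were called, and Hnrnpc had an edgeR adjusted p of 0.0568. Without WT SC replicate 2 there were 9 calls, against 5.84% of all genes, and without CTCF HET SC replicate 1 there were 7, against 6.56%. With the GC offset, 9 members were lower and 6 higher, against 5.44% and 3.48% of all genes, and 12 of the 20 calls were kept. Hnrnpa3 had 0 counts in every library labelled CTCF HET SC and 17 and 32 in WT SC, so no fold is given.

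Hnrnpr, Hnrnpd, Prpf8, U2af2, Snrpb and Sf3a2 passed the test in both cell types with opposite signs, and Hnrnpc had -0.79 in RS and 1.25 in SC. The share of all genes called with opposite signs was not counted, so nothing is read from the number of these members. The trend with GC content also turned: Spearman's rho over all genes was 0.50 in RS and -0.42 in SC. Over the members it was 0.37 and -0.29. The part of GC content in the opposite signs was not tested beyond the GC offset. Both comparisons used the libraries labelled CTCF HET of their own cell type. The difference between the CTCF HET effects was tested in 1 model over RS and SC. This added test called 10 members lower and 15 higher in RS relative to SC, against 10.6% and 23.0% of all 16152 genes. The 10 include Hnrnpc, whose WT RS values the selection used. The median of all genes was 0.33 in this contrast, and 0.014 over the members. DESeq2's scaling moved the median of all genes to -0.064, and DESeq2 called 26 members lower and 12 higher, against 19.9% and 14.9%. U2af2 had a difference of 1.98 (SE 0.290) and Prpf8 of 1.53 (SE 0.195). Hnrnpc had -1.93, a description since its WT RS values enter here. Hnrnpr (-1.39), Snrpd1 (-1.22), Prpf6 (-0.74), Hnrnpd (-0.70), Snrpb (1.81), Sf3b3 (1.18) and Hnrnpl (1.13) passed as well. All 10 of these genes, Hnrnpc included, had the same sign with DESeq2 and with the GC offset, under which Hnrnpd was not called (-0.20, edgeR adjusted p = 0.402). Hnrnpa3 is among the 15 rises and had 0 counts in every library labelled CTCF HET SC. Without WT SC replicate 2, 15 members were called, against 16.3% of all genes.

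**Figure D4:**
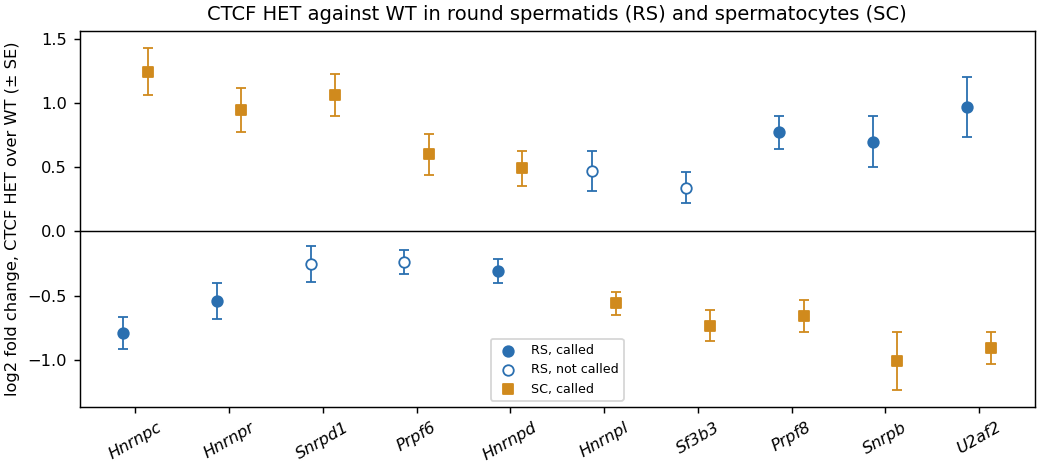
Log2 fold change over WT (y axis, ± SE) of the 10 genes named for the difference between cell types (x axis), in round spermatids (circles) and spermatocytes (squares) of libraries labelled CTCF HET; open symbols did not pass the test. Each gene lies on opposite sides of 0 in the 2 cell types, Hnrnpc at -0.79 and 1.25.

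In whole testis, edgeR and DESeq2 each called 0 members in CTCF HET against WT, and no member had an unadjusted p < 0.05. Of all 16097 genes, 0.00621% were called. Hnrnpc was at 57.3, 47.2 and 33.3 CPM in CTCF HET whole testis and overlapped WT (log2 fold change -0.13, SE 0.247).

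The comparisons of CM with WT used the same WT libraries as those of the single mutants. In CM SC, 2 members passed against WT, both higher, against 0.224% of all 14747 genes lower and 0.380% higher. Hnrnpc had a log2 fold change of 1.18 (SE 0.161, edgeR adjusted p = 0.0452). Srsf1 was at 316 and 286 CPM in WT and 476, 489 and 441 CPM in CM, a log2 fold change of 0.68 (SE 0.096, edgeR adjusted p = 0.0465). Members at an unadjusted p < 0.05 numbered 27. DESeq2 called 3 members lower and 14 higher, against 10.8% and 11.1% of all genes. CM SC replicate 1, the library with 85.9 CPM of Ctcf, set this count: without it 38 members were called (12 lower and 26 higher), against 38.9% of all genes. Without any other library of the comparison, 0 members and at most 0.00632% of all genes were called. With the GC offset, Hnrnpc was called and Srsf1 was not (0.33, adjusted p = 0.137).

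In CM RS, edgeR called 0 members against WT and 0.00654% of all 15298 genes, with 22 members at an unadjusted p < 0.05. DESeq2 called 13 members, all higher, against 6.88% of all genes higher. In 19 of 64 members every CM RS library lay above every WT RS library, against 11.4% of all genes, and the median log2 fold change of the members was 0.48, against 0.000 over all genes. The 13 and the 19 include Hnrnpc, whose WT RS values the selection used. Srsf1 was at 61.7, 286 and 99.0 CPM in CM RS and 41.0, 55.3 and 58.0 CPM in WT RS. Hnrnpul2 was at 39.1, 185 and 66.3 CPM in CM RS and 26.8, 27.5 and 25.8 CPM in WT RS. In both genes replicate 2, which also held the most spermatogonial marker RNA, was highest. Without that library the median over the members was 0.18, and 0 members and 0.00632% of all genes were called. Without CM RS replicate 1, the library with 172 CPM of Ctcf, 9 members were called higher, against 5.67% of all genes, and Hnrnpc had a log2 fold change of 1.28. With all libraries it had 1.01, and both are descriptions against the WT RS values that the selection used. The 8 spermatid markers summed to 930, 803 and 601 CPM in CM RS against 1490 to 1650 CPM in WT RS. The part of spermatogonial RNA and of cell makeup in these values was not tested.

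The difference between the CM effects in RS and in SC gave 0 members and 3.51% of all 17077 genes with edgeR, with 11 members at an unadjusted p < 0.05, and 3 members with DESeq2, against 8.54% of all genes. For Hnrnpc the difference was -0.26, given with no test since its WT RS values enter here. Without CM RS replicate 1, 5 members were called, against 5.44% of all genes, and without CM RS replicate 2 or CM SC replicate 1, 2 were called, against 3.74% and 5.89%.

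In CM whole testis, 3 members were higher than in WT and 0 lower (edgeR), against 16.4% of all 16378 genes higher and 8.80% lower. Prpf39 was at 21.3, 14.2 and 19.4 CPM in CM against 8.41, 8.80 and 7.31 CPM in WT, a log2 fold change of 1.13 (SE 0.260, adjusted p = 0.0203). Srsf1 was at 110, 93.0 and 106 CPM against 61.7, 68.1 and 58.5 CPM (log2 fold change 0.68, edgeR adjusted p = 0.0438). Hnrnpul2 was at 78.6, 43.2 and 40.5 CPM against 34.3, 25.1 and 24.9 CPM (log2 fold change 0.91, edgeR adjusted p = 0.0484). In all 3 genes the CM libraries lay above the WT libraries, as they did for 26.1% of all genes. With the replicate block, 10 members were higher and 0 lower, against 23.8% of all genes higher. Without CM whole testis replicate 2, 6 members were called, against 29.2% of all genes, and without replicate 3, 0 were called, against 0.0239%. Without WT replicate 1, 2 or 3, 0 members were called each time, against 10.9%, 0.0660% and 0.0178% of all genes. The 8 spermatid markers summed to 4860 to 12700 CPM in these CM libraries and 16100 to 24000 CPM in WT, and the 5 Sertoli markers found to 515 to 1120 CPM and 200 to 334 CPM. The part of cell makeup in these values was not tested.

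CM was also set against BORIS KO, which shares the Boris deletion, as a comparison added after the data were examined. In SC, CM held 13 members below and 30 above BORIS KO at the threshold, against 25.3% and 26.5% of all 14292 genes. Hnrnpc had a log2 fold change of 2.16 (SE 0.108, edgeR adjusted p = 0.000249). Prpf39 (1.49), Srsf1 (1.10) and Srsf10 (0.85) were among the other rises with the smallest p, and Sf3b2 (-0.50), Sf3a2 (-1.50), Snrpa (-2.13), Sf3b5 (-0.82) and Snrpb (-1.09) the falls with the smallest p. Spearman's rho with GC content was -0.68 over the members. With the GC offset 17 members were lower and 18 higher, against 21.1% and 14.4% of all genes, and Srsf10 had -0.18. Hnrnpc kept 1.51 with the offset (edgeR adjusted p = 0.000135). The BORIS KO SC libraries are those used against WT above, so the comparisons are not independent. In whole testis, 0 members and 0.00600% of all genes were called, with 3 members at an unadjusted p < 0.05 and 0 with DESeq2.

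**Figure D5:**
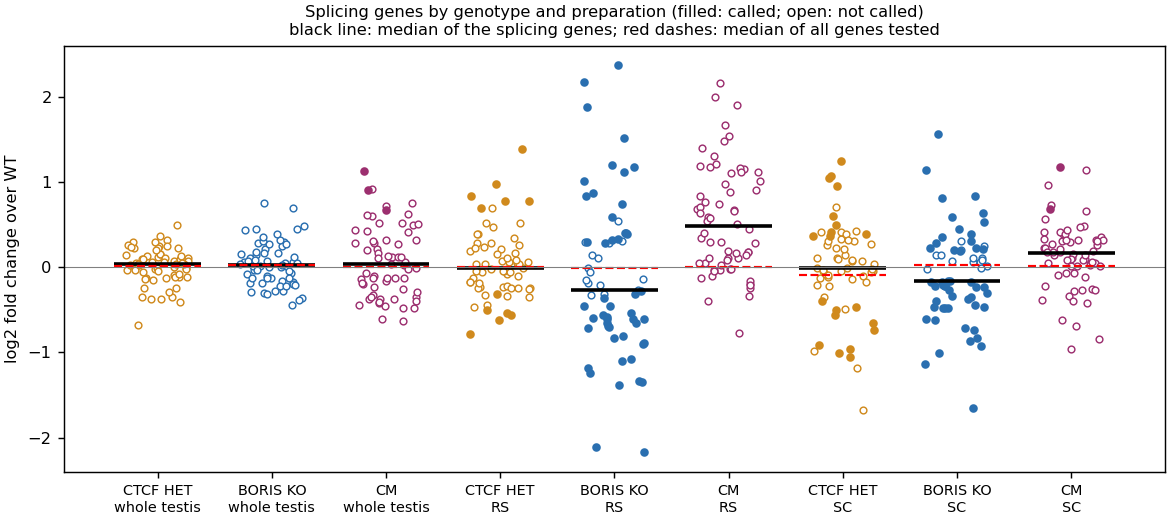
Log2 fold change over WT (y axis) of each splicing gene (points; filled when called) in the 9 comparisons of genotype and preparation (x axis), with the median of the members (black line) and of all genes tested (red dashes). The members are centred near 0 in whole testis, at -0.27 in BORIS KO RS and at 0.48 in CM RS. BORIS KO RS, where the group was selected, is shown as a description. Hnrnpa3 in CTCF HET SC, at 0 counts, is left out.

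The rest of the splicing machinery was counted from lists of 55 other spliceosome genes and 41 other splicing regulators found in the tables. In WT, 34 of the 55 spliceosome genes and 26 of 40 regulators tested were lower in RS than in SC, and 9 and 6 were higher, against 34.2% of all genes lower and 35.8% higher. In BORIS KO SC, 22 and 21 were lower and 15 and 7 higher, against 28.1% and 29.1% of all genes. In libraries labelled CTCF HET, 8 and 4 were lower and 4 and 7 higher in SC, against 8.76% and 6.77%, and 3 and 7 were lower and 8 and 2 higher in RS, against 12.8% and 9.51%. In CM whole testis, 2 and 1 were lower and 0 and 5 higher, against 8.80% and 16.4%. In CM RS and CM SC 0 of either list passed with edgeR, against 0.00654% of all genes in either direction in RS and, in SC, 0.224% lower and 0.380% higher.

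Promoters were compared with peaks from 1 deposited list per antibody and genotype of germ cell-enriched testis, so these counts have no replicate error. A WT CTCF summit lay within 1 kb of an annotated start of 25 of the 65 members (38.5%), against 32.4% of the 15745 genes past the filter in CM whole testis that had a gene model. A WT BORIS summit lay there in 23 members (35.4%), against 17.7%. Both were found in 14 members, CTCF without BORIS in 11, BORIS without CTCF in 9 and neither in 31, Hnrnpc among them, against 10.6%, 15.1%, 2.99% and 71.3% of all 21897 genes with a gene model. Shares of these classes among the genes past the filter were not counted. In CM, a CTCF summit was listed at 6 of the 25 promoters, those of Hnrnph1, Prpf18, Sf3a3, Sf3b2, Snrpd1 and Snrpe, and at no other member. This was 9.23% of the members, against 8.94% of all genes with a gene model and 11.2% of those past the filter, and of the 5625 genes with a WT CTCF summit 1882 had one in CM. The CM list was shorter, with 21525 peaks against 34625 in WT. A Pol2 peak overlapped the window in 60 members in WT and 63 in CM, against 54.6% and 64.1% of the genes past the filter. An H3K4me3 peak, a mark of active promoters, overlapped it in 64 and 65 members, against 70.3% and 76.7%. In BORIS KO SC, 8 of the 14 members with both summits were lower and 4 higher, and 13 of the 30 tested with neither were lower and 8 higher. With CTCF but no BORIS, 7 of 11 were lower and 3 higher, and with BORIS but no CTCF, 5 of 9 and 2. Of all genes tested, 28.1% were lower and 29.1% higher, a share not split by promoter class. A link of these changes to the summits was not tested.

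Base sequences at 4 of the WT CTCF summits are shown because these promoters differ in which summits were listed nearby. Each is the plus strand of mm9, 121 bases centred on the summit, in a stretch with no annotated exon. Capitals mark matches to AGGNGGC, letters of the CTCF core motif, on either strand. At Hnrnph1, a splicing regulator that binds G-rich RNA, and at Sf3a3, a CM CTCF summit and a BORIS summit both lay within 200 bp. At Hnrnpm a BORIS summit lay within 200 bp and no CM CTCF summit did, and at Hnrnpul1 neither did.
Hnrnph1 (chr11:50191972-50192092): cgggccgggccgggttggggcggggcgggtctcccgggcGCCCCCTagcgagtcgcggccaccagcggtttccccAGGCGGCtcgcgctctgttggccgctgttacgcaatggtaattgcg
Sf3a3 (chr4:124391875-124391995): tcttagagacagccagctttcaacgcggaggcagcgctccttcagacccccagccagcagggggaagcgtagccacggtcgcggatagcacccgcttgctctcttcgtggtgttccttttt
Hnrnpm (chr17:33821973-33822093): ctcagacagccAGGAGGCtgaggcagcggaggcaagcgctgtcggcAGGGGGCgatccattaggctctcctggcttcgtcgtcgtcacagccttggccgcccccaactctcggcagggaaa
Hnrnpul1 (chr7:26540159-26540279): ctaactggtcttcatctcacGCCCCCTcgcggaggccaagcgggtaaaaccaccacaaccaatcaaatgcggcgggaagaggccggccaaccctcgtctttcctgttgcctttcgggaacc
The windows of Hnrnph1 and Hnrnpm held 2 matches each, that of Hnrnpul1 held 1 and that of Sf3a3 held 0, which says only that these letters are not in that window. Of the 26 WT CTCF summit windows at member promoters, 10 held the motif (38.5%), against 34.4% of all WT CTCF windows, 39.1% of CM CTCF windows, 54.1% of BORIS windows and 16.2% of windows of the same length at annotated starts.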

How the data were processed

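RNA-seq read counts per gene symbol were deposited by the authors as 2 raw count tables, 1 for whole testis (ribosomal RNA-depleted, Ion Proton) and 1 for RS and SC (poly(A), aligned with STAR). The counting tool, annotation and use of strand were not given in the sources used here. The deposited peak lists (mm9, Bowtie2, MACS) give a peak height as signal for CTCF and BORIS and a score for Pol2 and H3K4me3, and how replicates were combined was not stated. The members and gene lists were chosen with earlier results of these data known.

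Each comparison was fitted on its own groups with edgeR 4.0.16 in R 4.3.3 (filterByExpr with a minimum count of 10, TMM scaling, robust quasi-likelihood test, Benjamini-Hochberg adjustment over all genes tested). A gene was called at an adjusted p < 0.05. DESeq2 1.42.0, other scaling, no filter, all genotypes in 1 fit, a replicate block, stricter thresholds and leaving out each library were alternatives. An offset for GC content, and the comparisons of CM with BORIS KO, of RS with SC in the mutants and of the CTCF HET effects between cell types, were added after the data were examined. The labels give 3 independent germ cell preparations for whole testis. They do not say that RS or SC libraries of a group came from separate preparations, so p-values there measure the spread between libraries, which may be technical. The scripts were tested on simulated data.

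Named were Hnrnpc, the 5 called members with the smallest p in each direction (8 for RS against SC in WT), the 5 largest changes in BORIS KO RS, and genes fixed by role, except 1 gene that is not reported here. Same-numbered libraries deviated together in whole testis (18 of 18 pairs over 0.1, r from 0.12 to 0.63), where the numbers were taken as pairs, but not in RS (4 of 18) or SC (1 of 15). The labels do not state such pairs, which were read from these same counts. CPM used TMM-scaled library sizes. Exon lengths, GC content and starts came from GENCODE gene models on mm9 for 21897 genes. Total counts ran from 10437683 to 98545423 per library.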

Additional observations from a re-analysis of the deposited data

Results flagged for a closer look

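The CTCF HET effect differed between RS and SC for 10 named members (edgeR difference, log2 scale, RS minus SC). It was lower in RS for Hnrnpc (-1.93, a description, since the group was selected on its WT RS values), Hnrnpr (-1.39), Snrpd1 (-1.22), Prpf6 (-0.74) and Hnrnpd (-0.70). It was higher in RS for U2af2 (1.98), Snrpb (1.81), Prpf8 (1.53), Sf3b3 (1.18) and Hnrnpl (1.13). Spearman's rho of this difference with GC content was 0.32 over the members and 0.43 over all genes. With the GC offset Hnrnpd was not called.

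For other members every mutant library lay on one side of the WT libraries in SC and on the other side in whole testis, a difference that was not tested. In BORIS KO, every library lay below WT for 35.5% of all genes in SC and above it for 13.6% in whole testis. In CM, every library lay above WT for 22.8% of all genes in SC and below it for 21.5% in whole testis. The share of all genes with both was not counted, so nothing is read from the number of these members. In BORIS KO against WT, the log2 fold change in SC and in whole testis was -0.44 and 0.45 for Srsf1, -0.87 and 0.70 for Prpf39, -0.16 and 0.45 for Hnrnpul2, and -0.71 and 0.30 for Prpf4b. None of these whole testis values passed the edgeR test without the replicate block, and with the block those of Hnrnpul2 (adjusted p = 0.055) and Prpf4b (adjusted p = 0.156) did not pass either. The SC value of Srsf1 was 0.012 with the GC offset. In CM against WT, it was 0.32 in SC and -0.44 in whole testis for Hnrnpu, and neither passed (edgeR adjusted p = 0.0797 and 0.186). Whole testis and SC were sequenced with different library types, which cannot be told apart from the preparation here.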

How the results depend on the processing

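Of 1668 values of single genes under an alternative, 1476 kept their direction and their side of the threshold, 26 became called, 144 were no longer called and 22 reversed. The causes were not tested. Members called moved by over 1.5 times as follows. With all genotypes in 1 fit, calls were 8 in CM whole testis, 0 in CTCF HET RS, 25 in BORIS KO RS, 20 in CM RS, 18 in BORIS KO SC, 12 in CM SC, 6 for the difference of CM effects and 49 for RS against SC in CM. With the replicate block, calls were 3 in BORIS KO whole testis, 10 in CM whole testis and 0 in CM SC, where same-numbered libraries did not deviate together, and with the block and the GC offset together 4 and 11 in the whole testis comparisons. The block moved no other count of calls by that much. With the GC offset, calls were 6 in CM whole testis, 20 in CTCF HET RS and 1 in CM SC. With DESeq2, calls were 13 in CM RS, 17 in CM SC, 3 for the difference of CM effects, 34 for RS against SC in CM and 38 for the difference of CTCF HET effects. RLE scaling gave 1 in CM whole testis, and no filter gave 1 there and 12 in CTCF HET SC. Where shares of all genes under these alternatives were counted, they stand with the comparisons above. The other counts of calls here have no such share, so nothing is read from them. The 20 calls in CM RS with all genotypes in 1 fit are among these.

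At an adjusted p < 0.05 and a fold change over 2, calls were 1 in CM whole testis, 1 in CTCF HET RS and 5 in CTCF HET SC. They were 5 in BORIS KO SC, 1 in CM SC and 14 for CM against BORIS KO SC. RS against SC in BORIS KO had 37 and the difference of CTCF HET effects 14. Shares of all genes are not given at these thresholds, so nothing is read from the counts. At an adjusted p < 0.001 and that fold, 0 members were called in CM whole testis, CTCF HET RS, CTCF HET SC and CM SC. The difference of CTCF HET effects also gave 0 members. Of all genes, 0 were called in CM whole testis, CTCF HET SC and CM SC. CTCF HET RS had 1 and the difference had 96. The paper applied these thresholds with DESeq2 and reported many changed genes in CM whole testis. The lack of edgeR calls in CM whole testis is thus no sign that expression was unchanged. At an adjusted p < 0.05 and any fold, edgeR called 4135 of all 16378 genes in that comparison. With the stricter thresholds, 5 members were called in BORIS KO SC, against 684 of all 14338 genes. CM against BORIS KO SC gave 7, against 1001 of 14292. RS against SC gave 32, 31, 37 and 1 members in WT, CTCF HET, BORIS KO and CM. The matching counts of all genes were 5726 of 16052, 2254 of 14632, 7440 of 15516 and 120 of 15037. DESeq2 at those thresholds gave 0 in CM whole testis and CTCF HET RS, 3 in CTCF HET SC, 5 in BORIS KO SC and 1 in CM SC. It gave 33 for RS against SC in WT. Shares of all genes are not given for these DESeq2 counts, so nothing is read from them. Peaks in the upper 50% of heights lay at 9, 14 and 2 member promoters for WT CTCF, WT BORIS and CM CTCF. These were 13.8%, 21.5% and 3.08% of the members, against 11.3%, 7.71% and 5.01% of all genes with a gene model. Of the genes past the filter, 14.2%, 10% and 6.28% had such a peak.

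Leaving out 1 library at a time gave 34 to 49 calls in BORIS KO SC, 2 to 25 in CTCF HET RS and 0 to 18 in CTCF HET SC. It gave 0 to 9 in CM RS, 0 to 38 in CM SC and 0 to 6 in CM whole testis. The difference of CTCF HET effects had 15 to 27 calls, that of CM effects 0 to 5, and CM against BORIS KO SC 37 to 49. Shares of all genes for single libraries stand with the comparisons above where they were counted. For RS against SC it gave 59 to 60 calls within BORIS KO, 48 to 58 within WT, 12 to 41 within CM and 47 to 54 within CTCF HET. The whole testis comparisons of BORIS KO and of CTCF HET with WT and of CM with BORIS KO stayed at 0.

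Hnrnpc in whole testis changed sign. In CTCF HET it was 0.010 with the GC offset, 0.009 with block and offset, and from -0.282 to 0.095 with 1 library left out (above 0 without WT replicate 1 and, at 0.033, without CTCF HET replicate 3). In BORIS KO it was -0.035 with RLE scaling and with DESeq2, -0.038 with no filter, -0.010 with all genotypes, -0.014 with the block, and from -0.302 to 0.280 with 1 library left out. With the GC offset in BORIS KO SC, signs turned for Hnrnpa2b1 (0.149), Hnrnpk (0.190), Hnrnpu (0.089), Srsf1 (0.012), Srsf3 (0.099), Srsf10 (0.071), Sf3b1 (0.126) and U2af2 (-0.234). The offset also turned Srsf10 for CM against BORIS KO SC (-0.184). Prpf6 for RS against SC in CTCF HET ran from -0.109 to 0.124 with 1 library left out.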
